A study of Mus musculus with 59 samples.

Results

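Glycolysis splits glucose into pyruvate, and hypoxia-inducible factors (HIF) raise many of its enzymes together with a wider set of target genes when oxygen is low. The genes followed here are 16 glycolytic enzymes and 16 other HIF targets, taken from a given list. Of these 32 genes, 28 had a probe set of their own on the array, among 11807 genes measured in all, and each gene was read from its probe set with the highest mean. The measured members were 13 glycolytic enzymes (Hk1, Hk2, Pfkl, Pfkp, Pfkm, Aldoa, Aldoc, Tpi1, Gapdh, Pgk1, Eno2, Pkm and Ldha) and 15 other targets (Slc2a1, Slc2a3, Pdk1, Bnip3, Bnip3l, Ndrg1, Egln1, Egln3, Vegfa, P4ha2, Mxi1, Adm, Kdm3a, Higd1a and Ddit4). No value is given for Gpi1 and P4ha1, nor for Pgam1, whose probe set is shared with another gene, nor for Eno1, whose probe set is annotated to the near-identical Eno1b.

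The series profiled messenger RNA of 59 mouse pluripotent lines with an Affymetrix array for each. The blood-derived induced pluripotent stem cells (iPSC) were 31 clones, 11 labelled HSC, 11 GMP and 9 granulocyte, and the fibroblast-derived iPSC were 11 clones, 5 labelled PF and 6 labelled TTF. These 42 clones came from 3 animals. Mouse 1 gave 11 blood-derived and 2 PF clones, mouse 2 gave 11 blood-derived and 3 PF clones, and chimera 2 gave 9 blood-derived and 6 TTF clones. PF and TTF are not spelled out in the labels and were counted as 1 fibroblast class, so the kind of fibroblast cannot be told apart from the animal between the mice and chimera 2. A further 6 iPSC clones came from MEFs of chimera 1, and 1 clone, Adeno-2, was an Adeno-iPSC from fetal liver. There were 6 NT-ESC lines from cloned blastocysts, of which NT-4, NT-5 and NT-6 were made from Adeno-2, NT-7 from iPSC-7, and NT-8 and NT-9 from iPSC-15. The embryonic stem cells (ESC) were 4 clones of the targeted KH2 line. Per the series' design text, the iPSC animals were chimeras made with ESC that carry an inducible cassette of Myc, Klf4, Oct4 and Sox2. All lines grew on irradiated MEF feeders in medium with 15% FBS and LIF and were preplated for 45 minutes to remove the feeders. Replicates are clones, so p-values measure the spread between clones, and clones of 1 animal share that animal. In such bulk cells, fewer cells of a type and less RNA per cell cannot be told apart.

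Pluripotent cells of the mouse are known for a strongly glycolytic metabolism, and several glycolytic enzymes and glucose transporters are also direct HIF targets. HIF is a pair of an alpha subunit, such as Hif1a or Epas1, and the partner Arnt. Prolyl hydroxylases of the Egln family mark the alpha subunit in the presence of oxygen, Vhl then leads it to degradation, and the hydroxylase genes Egln1 and Egln3 are themselves targets. The HIF pair binds short promoter or enhancer sequences with the core ACGTG or GCGTG.

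The 2 classes ran through the groups in a similar order, given here as the mean log2 level over the members of a class. For the glycolytic enzymes this mean was 4.23 ± 0.08 in MEF-derived iPSC (SD, n = 6), 4.08 ± 0.20 in ESC (n = 4), and 4.07 ± 0.06 in blood-derived iPSC of chimera 2 (n = 9). It was 3.82 ± 0.23 in NT-ESC (n = 6), 3.79 ± 0.07 in blood-derived iPSC of mouse 2 (n = 11), 3.70 ± 0.14 in those of mouse 1 (n = 11), 3.65 ± 0.09 in TTF-derived iPSC of chimera 2 (n = 6), 3.61 in the single Adeno-iPSC clone, 3.59 ± 0.09 in PF-derived iPSC of mouse 1 (n = 2) and 3.47 ± 0.10 in those of mouse 2 (n = 3). Most neighbours in this order overlap in their clones, while every blood-derived clone of chimera 2 lay above every blood-derived clone of both mice in this mean. For the other HIF targets the mean was 3.46 ± 0.14 in MEF-derived iPSC and 3.49 ± 0.09 in blood-derived iPSC of chimera 2, against 3.26 ± 0.35 in ESC. It was 2.99 ± 0.33 in NT-ESC, 2.93 ± 0.12 in blood-derived iPSC of mouse 2, 2.88 ± 0.18 in those of mouse 1, 2.73 ± 0.09 in TTF-derived iPSC, 2.69 ± 0.09 in PF-derived iPSC of mouse 1 and 2.49 ± 0.01 in those of mouse 2.

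**Figure D1:**
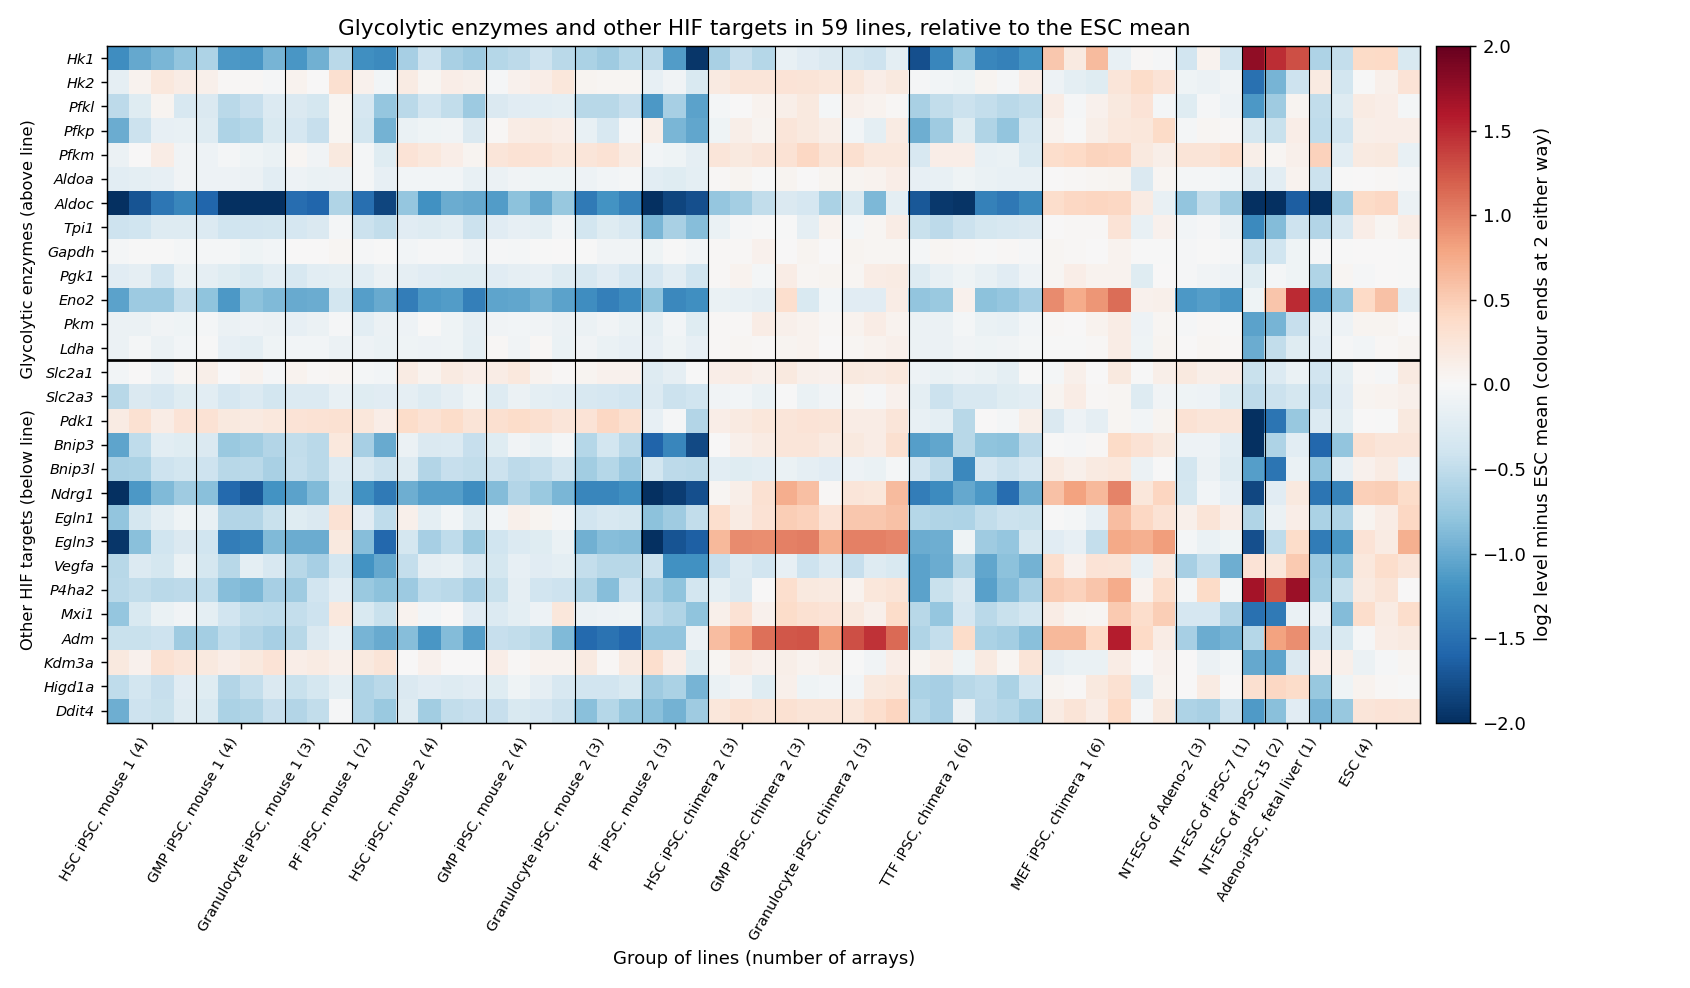
Heat map of the 28 measured members (rows, glycolytic enzymes above other HIF targets) in the 59 arrays (columns, by origin group), coloured by log2 level minus the mean of the 4 ESC, from -2 to 2. Fibroblast-derived columns are low for Aldoc, Ndrg1, Bnip3 and Egln3. Blood-derived columns of mouse 1 and mouse 2 also lie below the ESC mean for Aldoc and Ndrg1. Gapdh is nearly even across the columns other than NT-7 (level 6.09) and NT-8 (6.17).

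A few libraries stand apart. ESC-1 had a Bnip3 level of 3.85, against 4.88 to 4.94 in the other ESC, and a mean over 23 fibroblast and feeder markers of 1.40, against 0.18 to 0.65 in the other ESC. NT-7, NT-8 and NT-9 had pluripotency marker means of 3.68, 3.57 and 4.01, against 3.96 to 4.70 in the other 56 arrays. NT-9 lies inside that range, and the PF-derived clones iPSC-34 (3.96) and iPSC-32 (4.02) of mouse 2 were about as low. Counts in the comparisons with ESC are also given below without ESC-1 or without NT-7 to NT-9 where those fits were made. The donor families are also given apart.

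Blood-derived iPSC had higher levels of most members than fibroblast-derived iPSC. With cell type and animal as terms, 25 of the 28 members were higher in blood-derived clones at an adjusted p under 0.05 (limma, Benjamini-Hochberg over all genes), 12 of 13 glycolytic enzymes and 13 of 15 other HIF targets, and 0 were lower. Over all genes, 28.1% were higher and 21.6% lower in blood-derived clones, 49.7% together. The median difference was 0.28 log2 units for the glycolytic enzymes and 0.52 for the other HIF targets, and 0.003 over all genes. Gapdh, glyceraldehyde-3-phosphate dehydrogenase, had a difference of 0.020 (SE 0.02, adjusted p = 0.404), Bnip3l, a mitophagy receptor, of 0.15 (SE 0.07, adjusted p = 0.0852) and Kdm3a, a histone demethylase, of -0.023 (SE 0.04, adjusted p = 0.641), and these 3 did not pass the test. Leaving out each of the 42 clones in turn kept the 12 glycolytic calls and 13 or 14 calls among the other targets.

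Among the glycolytic enzymes the largest difference was that of Aldoc, aldolase C, which splits fructose 1,6-bisphosphate. Aldoc ran from -0.05 over a median of 1.77 to 2.60 in 31 blood-derived clones, against 0.10, 1.04 and 1.52 in 11 fibroblast-derived clones. The lowest clone of all is blood-derived, of mouse 1, so the groups overlap, and the blood-derived median lies above the highest fibroblast-derived clone. The difference was 0.83 log2 units (SE 0.15, adjusted p = 1.39e-05 by limma), a 1.77-fold level. The 2 probe sets of Aldoc correlated at 0.429 over the 59 arrays.

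Hk1, a hexokinase that phosphorylates glucose at the first step, ranged from -0.51 over 0.13 to 0.60 in blood-derived clones, against -1.20, -0.54 and 0.22 in fibroblast-derived clones. Every blood-derived clone lies above the fibroblast-derived median, and the ranges overlap. The difference was 0.69 (SE 0.09, adjusted p = 1.15e-07 by limma), a 1.61-fold level. Pfkp and Pfkl, subunits of phosphofructokinase, which commits sugar to glycolysis, followed. Pfkp ranged from 3.51 over 4.42 to 4.74 in blood-derived clones, against 3.48, 3.80 and 4.63 in fibroblast-derived clones. The ranges overlap widely. The highest fibroblast-derived clone, iPSC-32, lies above the blood-derived median, and others, such as iPSC-46 at 4.26, lie among the blood-derived clones. Its difference was 0.55 (SE 0.09, adjusted p = 7e-06 by limma). Pfkl ranged from 3.08 over 3.53 to 4.00 in blood-derived clones, against 2.64, 3.26 and 3.45 in fibroblast-derived clones. Its difference was 0.50 (SE 0.06, adjusted p = 1.16e-08 by limma), and the ranges overlap.

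The remaining glycolytic enzymes moved less. Tpi1, triosephosphate isomerase, was 0.39 log2 units higher in blood-derived clones, Pfkm, the muscle-type phosphofructokinase, 0.30, Eno2, an enolase, 0.28, and Hk2, the second hexokinase, 0.20. Aldoa (aldolase A), Pkm (pyruvate kinase) and Pgk1 (phosphoglycerate kinase) were each 0.12 higher and Ldha, which makes lactate from pyruvate, 0.08 higher. All of these passed the test. Differences were smaller among the members with the brightest probe sets: for the 7 members with a mean level of at least 5 they lay between 0.02 and 0.22 (median 0.12), and for the other 21 between -0.02 and 1.22 (median 0.52). The highest value on any array was 6.97, and the part of probe-set brightness in these sizes was not tested.

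Among the other HIF targets, Egln3, a prolyl hydroxylase that marks HIF alpha subunits, differed most. It ranged from 0.57 over 2.11 to 3.53 in blood-derived clones, against 0.36, 1.53 and 2.42 in fibroblast-derived clones. All blood-derived clones of chimera 2 lie above every fibroblast-derived clone, while the low ends of both groups overlap. The difference was 1.22 log2 units (SE 0.15, adjusted p = 2.23e-08 by limma), a 2.32-fold level.

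Ndrg1, a stress-response gene induced by hypoxia, ranged from -0.30 over 0.81 to 2.42 in blood-derived clones, against -0.40, 0.31 and 0.71 in fibroblast-derived clones, and differed by 1.05 (SE 0.14, adjusted p = 4.03e-08 by limma). The blood-derived median lies above the highest fibroblast-derived clone. Bnip3, a mitophagy receptor, ranged from 3.58 over 4.40 to 4.96 in blood-derived clones, against 2.83, 3.63 and 4.11 in fibroblast-derived clones, and differed by 0.95 (SE 0.10, adjusted p = 2.27e-10 by limma). Adm, adrenomedullin, a secreted peptide, ranged from -1.69 over -0.61 to 1.32 in blood-derived clones, against -1.12, -0.80 and 0.25 in fibroblast-derived clones. Its difference of 0.70 (SE 0.17, adjusted p = 0.000932 by limma) sits in a range where some blood-derived clones are the lowest of all and others the highest.

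Apart from Bnip3l and Kdm3a, which did not pass the test, the rest of this class was higher too. Egln1, the main prolyl hydroxylase for HIF, and Vegfa, a growth factor for blood vessels, were each 0.62 higher in blood-derived clones, and Vegfa had the smallest adjusted p of the members (9.41e-11 by limma). Mxi1, a Myc antagonist, was 0.53 higher, Ddit4, an inhibitor of mTORC1, 0.52, and P4ha2, a collagen prolyl hydroxylase subunit, and Higd1a, a mitochondrial protein, 0.46 each. For Higd1a the 3 probe sets correlated at 0.222 at the lowest, and when each probe set was tested on its own, Higd1a was also called lower. Pdk1, a kinase that shuts down pyruvate dehydrogenase, was 0.35 higher, and the glucose transporters Slc2a1 and Slc2a3 0.22 and 0.14.

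**Figure D2:**
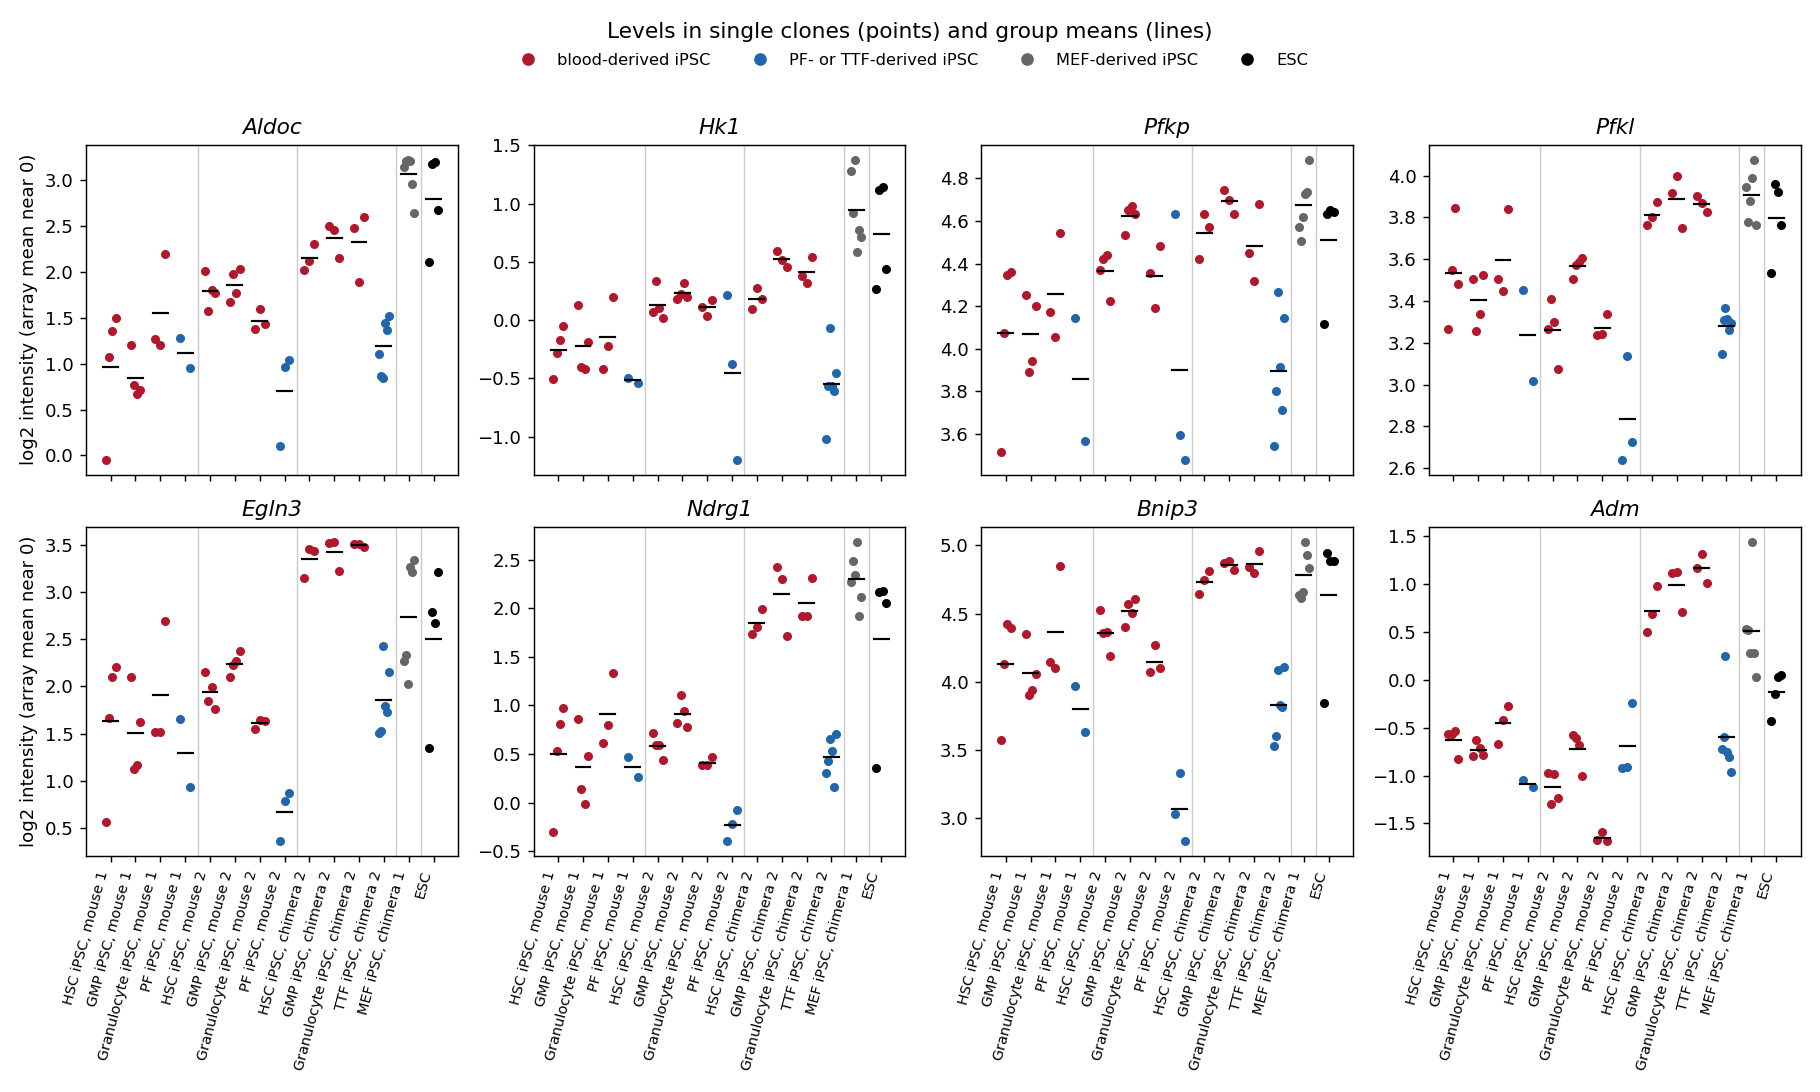
Log2 level (y axis) of Aldoc, Hk1, Pfkp, Pfkl, Egln3, Ndrg1, Bnip3 and Adm in each clone (points) with the group mean (lines), by origin group. Blood-derived points of chimera 2 are the highest of the blood groups for Egln3, Ndrg1 and Adm, while blood-derived and PF-derived clones of mouse 1 overlap for Aldoc.

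For the members whose promoters are in the sequence table, the promoters of the 3 largest differences per class are shown, since HIF targets can carry its core there. The RefSeq table (build GRCm38.p6) holds 25 of the 28 measured members, and Ndrg1 is not among them. The 250 bases before the first listed start are Aldoc at chr11:78322823-78323072 (plus strand), Hk1 at chr10:62379909-62380158 (minus strand), Pfkp at chr13:6648772-6649021 (minus strand), Egln3 at chr12:54203875-54204124 (minus strand), Bnip3 at chr7:138909507-138909756 (minus strand) and Adm at chr7:110627407-110627656 (plus strand). Capitals mark every match to ACGTG or GCGTG on either strand, which read CACGT and CACGC on the opposite strand.
Aldoc: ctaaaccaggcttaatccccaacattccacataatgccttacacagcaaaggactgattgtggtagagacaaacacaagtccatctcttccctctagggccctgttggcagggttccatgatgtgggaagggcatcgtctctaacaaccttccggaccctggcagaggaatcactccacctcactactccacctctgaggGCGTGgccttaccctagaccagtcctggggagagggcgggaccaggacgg
Hk1: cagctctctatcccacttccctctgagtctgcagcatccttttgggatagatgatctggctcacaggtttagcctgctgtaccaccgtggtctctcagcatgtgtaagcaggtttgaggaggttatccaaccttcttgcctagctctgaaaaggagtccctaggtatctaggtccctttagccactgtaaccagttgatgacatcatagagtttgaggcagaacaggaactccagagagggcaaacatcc
Pfkp: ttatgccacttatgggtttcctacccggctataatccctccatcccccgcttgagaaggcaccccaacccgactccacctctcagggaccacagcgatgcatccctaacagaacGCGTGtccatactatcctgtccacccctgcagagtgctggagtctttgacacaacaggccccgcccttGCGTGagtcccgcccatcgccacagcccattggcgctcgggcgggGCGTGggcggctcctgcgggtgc
Egln3: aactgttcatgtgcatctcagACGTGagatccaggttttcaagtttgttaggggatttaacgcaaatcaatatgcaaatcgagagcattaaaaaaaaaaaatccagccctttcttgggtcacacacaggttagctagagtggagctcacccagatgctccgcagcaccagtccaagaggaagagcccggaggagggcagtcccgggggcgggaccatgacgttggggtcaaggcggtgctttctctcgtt
Bnip3: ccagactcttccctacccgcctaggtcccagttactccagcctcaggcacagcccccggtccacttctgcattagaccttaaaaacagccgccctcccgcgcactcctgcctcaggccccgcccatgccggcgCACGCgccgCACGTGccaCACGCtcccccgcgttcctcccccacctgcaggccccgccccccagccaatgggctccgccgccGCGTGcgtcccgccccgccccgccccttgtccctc
Adm: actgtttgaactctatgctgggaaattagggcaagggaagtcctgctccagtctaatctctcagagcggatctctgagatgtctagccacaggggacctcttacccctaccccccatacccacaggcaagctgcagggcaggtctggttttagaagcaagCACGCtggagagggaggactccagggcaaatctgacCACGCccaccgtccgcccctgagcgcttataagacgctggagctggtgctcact

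Bnip3 holds 5 matches in the printed bases and includes an E-box, CACGTG, which overlaps ACGTG on both strands. Pfkp has 3 matches, Adm 2, Aldoc and Egln3 1 each, and no match lies in these bases of Hk1. Over the whole window of 300 bases, which adds the first 50 transcribed bases, ACGTG was found in 13 of 25 members (52.0%), against 19.7% of all 27025 promoters. GCGTG was found in 14 (56.0%), against 32.5% of all, and either core in 18 (72.0%), against 43.8%. CACGTG was found in 3 (12.0%), against 7.2%. By class, either core was in 8 of 13 glycolytic promoters (61.5%) and 10 of 12 promoters of the other targets (83.3%). The members were listed as glycolytic enzymes and HIF targets, and all promoters include those of genes not measured here. No test of these shares was made. A match is a description of letters, not of binding.

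The size of the difference varied between animals. The contrast was taken within each animal in 1 fit of all 12 origin groups. Within mouse 1, 1 of the 28 members was higher in blood-derived clones and 0 lower (limma), where 8.32% of all genes were higher and 3.51% lower. Within mouse 2, 18 were higher and 1 lower, where 23.3% and 17.1% of all genes were. Within chimera 2, 26 were higher and 0 lower, where 20% and 15.4% were. The difference itself differed between animals for 17 of the 28 members, 5 glycolytic enzymes and 12 other targets (limma F test over 3 animals), where 19.2% of all genes did. That count was lowest without iPSC-19, 1 of the 2 PF clones of mouse 1. Such a fit keeps 1 PF clone in mouse 1, and the share of all genes was not counted in it. The fall in members cannot be told apart from a fall over all genes.

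Bnip3 is an example, though its difference was largest in mouse 2, while that of most members was largest in chimera 2. In mouse 1 it ranged from 3.58 over 4.13 to 4.85 in blood-derived clones, against 3.97 and 3.63 in the PF-derived clones. In mouse 2 it ranged from 4.07 over 4.36 to 4.61 in blood-derived clones, against 3.03, 3.34 and 2.83 in PF-derived clones. In chimera 2 it ranged from 4.65 over 4.82 to 4.96 in blood-derived clones, against 3.53, 3.82 and 4.11 (lowest, median and highest) in TTF-derived clones. The groups overlap in mouse 1 and do not overlap in the other animals. Its differences were 0.38 (SE 0.17), 1.28 (SE 0.14) and 0.99 (SE 0.11) in mouse 1, mouse 2 and chimera 2, and the F test of their difference gave an adjusted p of 0.0118 (limma).

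Adm had differences on both sides of 0. It was lower in blood-derived than in PF-derived clones of mouse 2, at -0.47 (SE 0.16, adjusted p = 0.0151 by limma), and higher in blood-derived than in TTF-derived clones of chimera 2, at 1.56 (SE 0.13, adjusted p = 3.58e-11 by limma). Its range in mouse 2 was -1.69, -1.003 and -0.58 (lowest, median and highest) in blood-derived clones, against -0.92, -0.91 and -0.25 in PF-derived clones. In chimera 2 blood-derived clones ran from 0.50 over 1.02 to 1.32, against -0.96, -0.74 and 0.25 in TTF-derived clones. The ranges overlap in mouse 2 and are apart in chimera 2. The value in mouse 2 rests on 1 PF-derived clone, iPSC-34, at -0.25: without it the difference was -0.25 (SE 0.17, adjusted p = 0.301 by limma). In mouse 1 Adm had a difference of 0.48 (SE 0.18, adjusted p = 0.0798 by limma), and in a fit of mouse 1 alone it passed (SE 0.10, adjusted p = 0.00847). Vegfa was the member called in all 3 animals. The difference was 0.70 (SE 0.13, adjusted p = 0.000803), 0.60 (SE 0.11, adjusted p = 6.26e-05) and 0.58 (SE 0.09, adjusted p = 5.04e-06) in mouse 1, mouse 2 and chimera 2 (limma), and the F test of their difference gave an adjusted p of 0.834. In mouse 1 its level ran from 0.91 over 1.23 to 1.45 in blood-derived clones, against 0.39 and 0.55 in PF-derived clones, with no overlap.

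Members with every blood-derived clone above every fibroblast-derived clone numbered 3 in mouse 1 (Tpi1, Vegfa and Adm), where 12.3% of all genes did so, and 5.12% the other way round. They numbered 13 in mouse 2 (5 glycolytic enzymes and 8 other targets), where 11.8% did, and 23 in chimera 2 (10 and 13), where 6.8% did. Over the 3 animals together, 0 of 28 did so, against 0.288% of all genes.

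**Figure D3:**
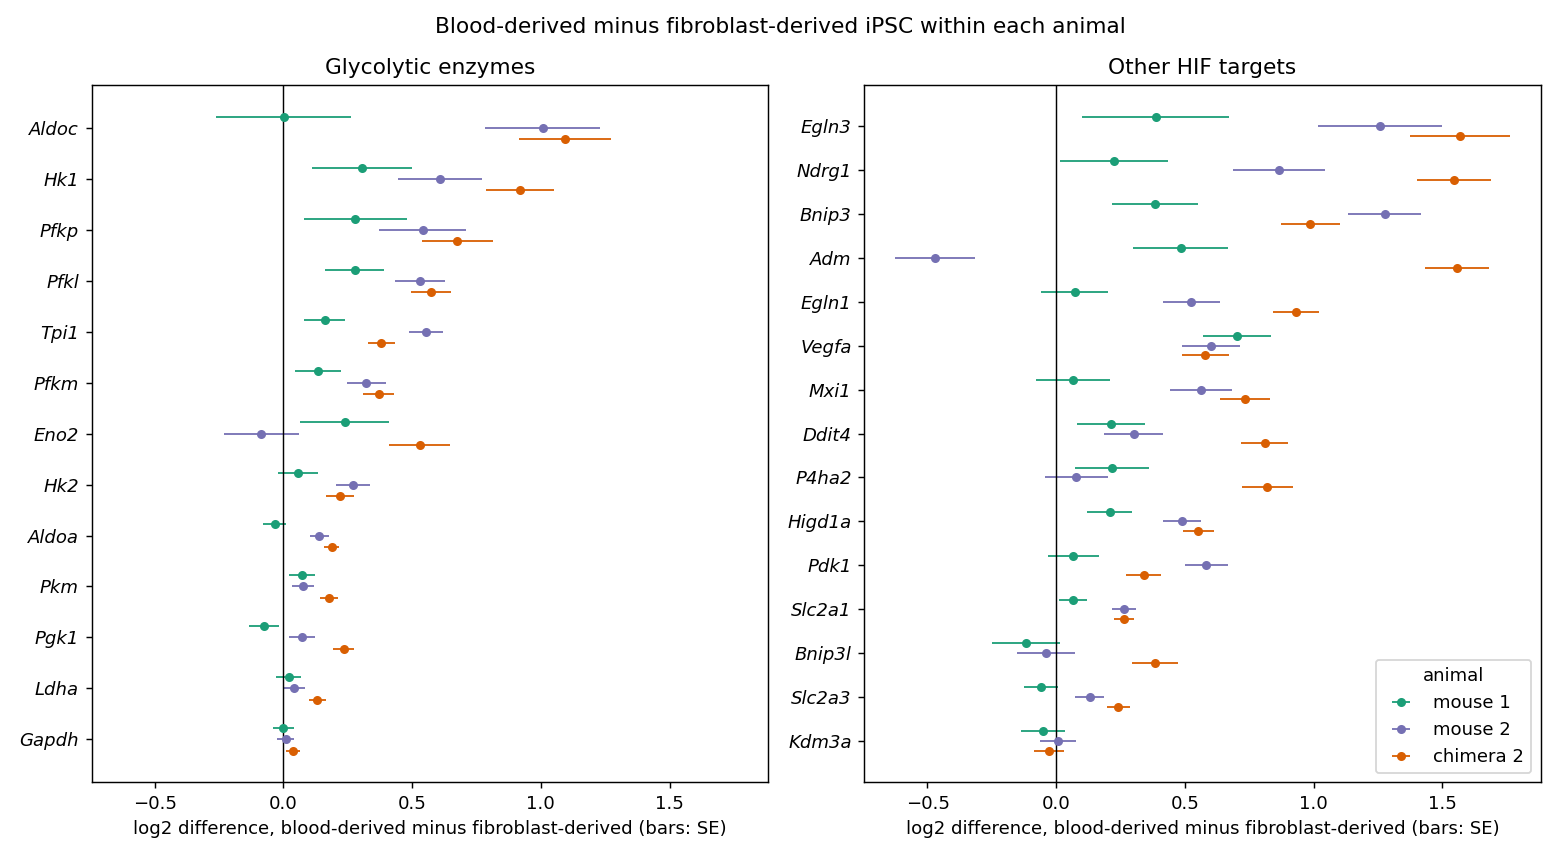
Blood-derived minus fibroblast-derived difference in log2 level (x axis, with SE bars) for each member (rows) in mouse 1, mouse 2 and chimera 2. Differences in chimera 2 are the largest for most members, those in mouse 1 are near 0 for many, and Adm is below 0 in mouse 2.

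Markers of fibroblasts and feeders moved with the same contrast. Of 23 measured fibroblast and feeder markers, 21 were lower in blood-derived clones and 0 higher, with a median difference of -0.87, among them Dcn, a matrix proteoglycan (-1.63), Twist2, a mesenchymal transcription factor (-1.62), Timp3, a matrix protease inhibitor (-1.48), Prrx1, another mesenchymal factor (-1.24), and Postn, a matrix protein (-1.21). The marker mean ranged from 0.61 to 2.15 in blood-derived clones, against 1.41 to 2.50 in fibroblast-derived clones. Blood minus fibroblast, it was -0.28 in mouse 1, -1.33 in mouse 2 and -0.89 in chimera 2, against member differences of 0.10, 0.32 and 0.42 for the mean of the glycolytic enzymes and 0.18, 0.44 and 0.75 for the other targets. Mouse 1 had the smallest gap in markers and members, mouse 2 the largest in markers, and chimera 2 the largest in members. No marker has a zero on this log scale. Within groups, the correlation of a member with the marker mean over the 42 clones, as a description, had a median of -0.22 for the glycolytic enzymes and -0.47 for the other targets, and 24 of 28 were below 0. The lowest was that of Aldoc, -0.84, followed by Egln1, -0.77.

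With the marker mean as a covariate, 6 members were higher in blood-derived clones, where 11.5% of all genes were higher and 4.99% lower. These were Hk1 (0.55, adjusted p = 0.0268) and Pfkm (0.24, adjusted p = 0.0313) among the glycolytic enzymes and Vegfa (0.70, adjusted p = 6.37e-05), P4ha2 (0.60, adjusted p = 0.0126), Adm (1.07, adjusted p = 0.0183) and Higd1a (0.25, adjusted p = 0.0298) among the other targets (limma). The difference was -0.33 for Aldoc (adjusted p = 0.189), -0.050 for Slc2a3 (adjusted p = 0.619) and -0.022 for Hk2 (adjusted p = 0.819), below 0, where these genes were higher without the covariate. Bnip3 was at 0.27 (SE 0.13, adjusted p = 0.14), Egln3 at 0.32 (SE 0.23, adjusted p = 0.349) and Ndrg1 at 0.34 (SE 0.22, adjusted p = 0.28) by limma. For these genes the SE was larger than without the covariate. A lost call alone does not tell a smaller difference from lower precision. No other test of the markers' part was made.

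**Figure D4:**
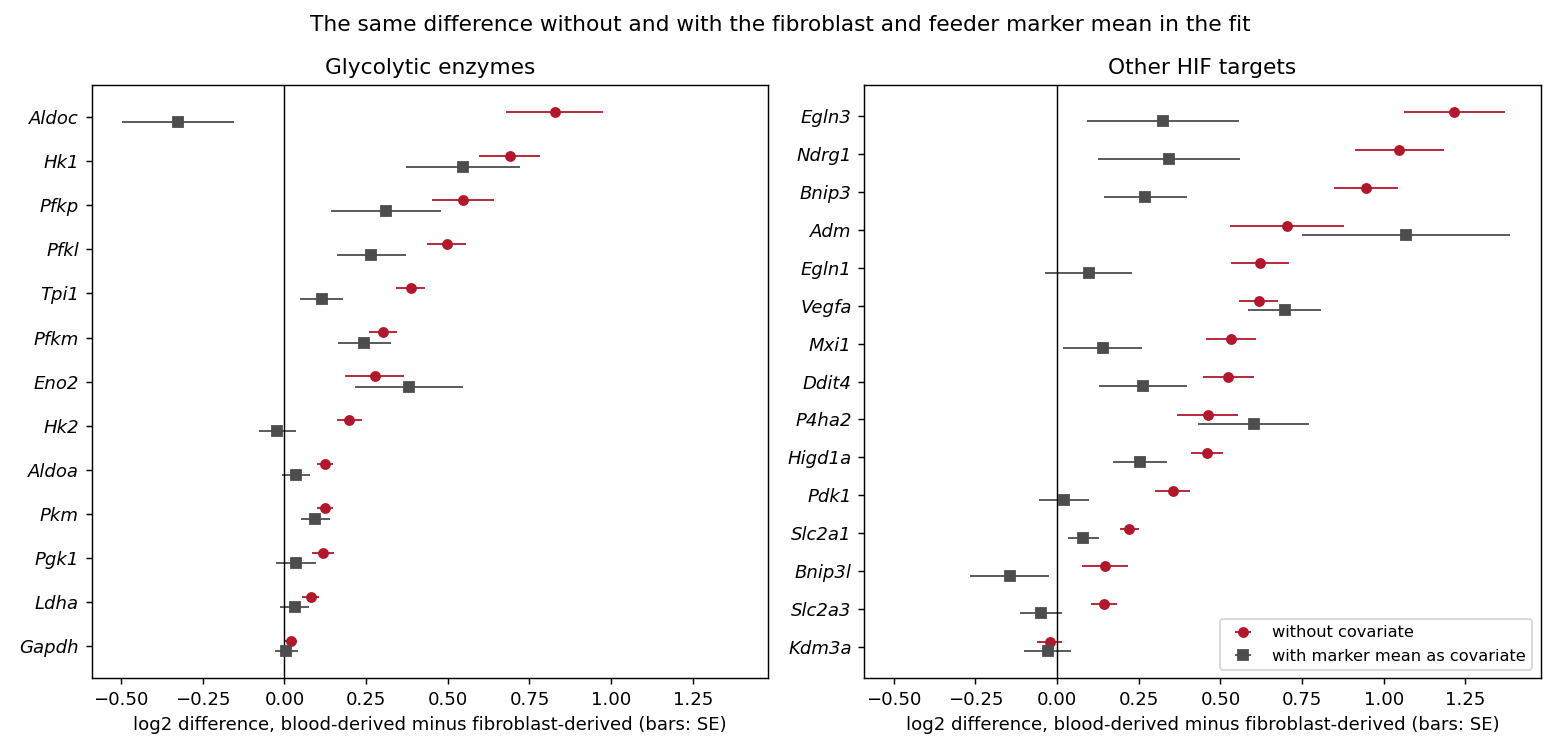
Blood-derived minus fibroblast-derived difference in log2 level (x axis, with SE bars) for each member (rows), with cell type and animal alone (circles) and with the marker mean added (squares). Squares of Aldoc, Hk2 and Slc2a3 lie below 0, and those of Vegfa and Adm stay near or above their circles.

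Pluripotency markers also differed between these groups: 7 of 9 were higher and 1 lower in blood-derived clones. Pou5f1, a core pluripotency factor, was 0.59 higher (adjusted p = 0.0223), Sox2 0.24 (adjusted p = 0.00015), and Nanog was at 0.07 (adjusted p = 0.221). Over the animals the mean of these markers differed by 0.05 in mouse 1, 0.49 in mouse 2 and 0.10 in chimera 2. Of 16 haematopoietic markers, 2 were higher (Coro1a 0.39 and Ptprc 0.13) and 5 lower, the largest being Cd53, at -1.53. Their part in the result was not tested.

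Among the 9 measured regulators of the pathway, 4 were higher and 2 lower in blood-derived clones (limma). Arnt, the HIF partner subunit, was 0.38 higher, Mycn, a Myc family member, 0.23, Hif3a 0.21 and Epas1, an alpha subunit, 0.15, and Myc was lower, at -0.49, as was Egln2, a prolyl hydroxylase, at -0.17. Hif1a (-0.04, adjusted p = 0.447) and Vhl (0.05, adjusted p = 0.537) did not pass the test. Of 22 further HIF targets measured, 15 were higher and 4 lower. Gys1, a glycogen synthase, and Ero1a, an oxidase of the endoplasmic reticulum, were each 0.80 higher and Stc2, a secreted glycoprotein, 0.68, while Lox and Loxl2, which cross-link collagen, were lower, at -0.95 and -0.23. The median of this list was 0.24.

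In other routes of carbon metabolism the median difference was -0.034 for the other glycolytic isoforms, 0.13 for the pentose phosphate pathway and the respiratory chain and 0.14 for pyruvate oxidation and the citric acid cycle. Of 12 other glycolytic isoforms, 4 were higher, among them Pgam2 (0.47) and Ldhb (0.40), and 2 lower, Bpgm (-0.22) and Pfkfb2 (-0.20). In the pentose phosphate pathway 3 of 5 were higher and 1 lower (Rpia 0.21 and Pgd -0.14), and in pyruvate oxidation and the citric acid cycle 13 of 19 were higher and 0 lower, led by Suclg2 (0.57) and Pdhb (0.27). In the respiratory chain 12 of 18 were higher and 1 lower, with Uqcrc1 at 0.26 and Cycs at -0.14. Over all genes the shares were 28.1% higher and 21.6% lower.

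Over 4 cells of origin (HSC, GMP, granulocyte and fibroblast), 23 of 28 members differed (limma F test), 10 glycolytic enzymes and 13 other targets, where 38% of all genes did. Between granulocyte-derived and HSC-derived clones, 0 of 28 passed in either direction, where 0% of all genes did. At an unadjusted p under 0.05, 390 genes passed that comparison and 0 members did. Members differed between animals as well: 25 of 28 passed (all 13 glycolytic enzymes and 12 other targets), where 44.9% of all genes did. Slc2a1, Pdk1 and Vegfa did not pass. Egln3 in blood-derived clones was 3.42 ± 0.14 in chimera 2 (SD, n = 9), 1.96 ± 0.29 in mouse 2 (n = 11) and 1.66 ± 0.60 in mouse 1 (n = 11), and the spread between animals was 1.49 in the fit (adjusted p = 8.41e-10 by limma).

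Members differed in how much they varied between clones of the same group. The SD within groups over the 42 clones was 0.39 for Egln3, at the 99.0 percentile of all genes, 0.36 for Aldoc, at 98.6, and 0.29 for Ndrg1, at 95.9, while Gapdh, at 0.027, was among the least variable genes. As a description with no test, the correlation of clone deviations had a median of 0.258 over the 78 pairs of glycolytic enzymes and 0.268 over the 105 pairs of other targets, and 0.001 over all gene pairs. The closest pairs were Bnip3 with Egln3 (0.898), Ndrg1 with Egln3 (0.864), Aldoc with Egln1 (0.848) and Hk1 with Pfkp (0.822). These points share arrays and the marker mean.

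Between MEF-derived iPSC and ESC, 0 of the 28 members passed at an adjusted p under 0.05 (limma), where 0% of all genes did. At an unadjusted p under 0.05, 4 members passed (Pfkm, Eno2, P4ha2 and Adm, 14.3%), against 8.44% of all genes (997). That count was 2 without ESC-1 (7.14%), against 7.38% of all genes. Of the member differences, 24 of 28 were above 0, with a median of 0.13, but without ESC-1 there were 15, with a median of 0.0090, and 13 members, among them Bnip3, Egln3 and Vegfa, were below 0. Leaving out ESC-1, or any other of these 10 clones, also gave 0 calls. In 1 fit over all groups, which shares their spread, Pfkm and Adm were higher, where 1.08% of all genes were and 0.635% were lower. Adm was 0.03, 0.28, 0.28, 0.52, 0.53 and 1.44 in MEF-derived clones, against -0.43, -0.15, 0.03 and 0.05 in ESC, a difference of 0.64 (SE 0.23, adjusted p = 0.469 by limma). The lowest MEF-derived clone lies among the ESC and the other 5 lie above them. Bnip3 ranged from 4.62 over 4.75 to 5.03 in MEF-derived clones, against 3.85, 4.88, 4.89 and 4.94 in ESC, where ESC-1 is the low one.

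All 48 iPSC together, set against the same 4 ESC, gave 0 of 28 calls (limma), where 2.52% of all genes were higher and 2.41% lower. Of the members, 23 differences were below 0 (25 without ESC-1), and 6 passed at an unadjusted p under 0.05 (21.4%), against 22.6% of all genes. The latter count was 11 without ESC-1 (39.3%), against 26.7% of all genes. The calls depended on how the spread between clones was taken and on ESC-1. With the clones weighted as before and the spread taken within origin groups, an analysis added after seeing the data, 14 members were lower, where 11% of all genes were and 12.7% were higher. The difference of Aldoc stayed at -1.10 there, while its SE was 0.18 in place of 0.39. With each origin group also weighted equally, 14 members were lower (6 glycolytic enzymes and 8 other targets), where 12% of all genes were lower and 13.7% higher, among them Aldoc (-1.15, adjusted p = 8.46e-06), Hk1 (-0.71, adjusted p = 0.000313) and Ndrg1 (-0.71, adjusted p = 0.00344). Without ESC-1, 3 were lower, where 4.83% of all genes were and 4.59% were higher, and without the MEF-derived clones 7 were lower, where 9.06% were and 10.2% were higher. With equal weights for the origin groups and ESC-1 left out, also added after seeing the data, 17 were lower, where 16% were and 15.8% were higher. The 3 comparisons with ESC use the same 4 arrays.

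Nuclear transfer was set against donor within families. With the donor as a block, 0 of 28 members passed (limma), where 0.0169% of all genes were higher and 0.0423% lower in NT-ESC, 0.0593% together. At an unadjusted p under 0.05, 11 members passed (39.3%), against 40.9% of all genes. The families went different ways. In NT-4, NT-5 and NT-6, made from Adeno-2, Bnip3 was 4.53, 4.53 and 4.43, against 3.07 in Adeno-2, and Ndrg1 was 1.34, 1.63 and 1.52, against 0.23. Egln3 was 2.47, 2.38 and 2.41, against 1.11, and Aldoc 2.01, 2.30 and 2.08, against 0.77 in Adeno-2. All 3 lines lie above their single donor for these genes. The marker mean in these lines was 0.20, 0.18 and 0.25, against 1.78 in Adeno-2. A fit of this family alone, added after the values were seen, put 14 members higher in NT-ESC, where 7.91% of all genes were and 9.38% were lower. Its donor is 1 array with no spread of its own, so that count restates that the 3 lines lie above 1 array and tests nothing about donors.

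NT-7 to NT-9, whose pluripotency marker means are given above, were made from blood-derived donors and had other differences. Hk1 was 2.51 in NT-7, against -0.51 in iPSC-7, and 2.21 and 2.04 in NT-8 and NT-9, against -0.42 in iPSC-15. P4ha2 was 1.69 in NT-7, against -0.51 in iPSC-7, and 1.29 and 1.73 in NT-8 and NT-9, against -0.68 in iPSC-15. Pdk1 was 2.23 in NT-7, against 4.70 in iPSC-7, and 3.07 and 3.78 in NT-8 and NT-9, against 4.81 in iPSC-15. In all 3 lines Hk1 and P4ha2 lay above the donor and Pdk1 below it. Bnip3 was 2.58 in NT-7, against 3.58 in iPSC-7, and 4.03 and 4.43 in NT-8 and NT-9, against 4.14 in iPSC-15, with no common direction. Without the Adeno-2 family, Hk1, Eno2 and P4ha2 were higher and Pdk1 lower in NT-ESC (limma), where 10.2% of all genes were higher and 10.4% lower.

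Against ESC, 0 of 28 members passed in NT-ESC (limma), where 0% of all genes were higher and 0.00847% lower. At an unadjusted p under 0.05, 2 members passed (7.14%), against 17.6% of all genes. That count was 6 with NT-7 to NT-9 left out (21.4%, against 21.7% of all genes). It was 4 with ESC-1 left out (14.3%, against 13.1% of all genes). Of the members, 24 differences were below 0, with a median of -0.28, and with NT-7 to NT-9 left out 20 were, with a median of -0.075. In 1 fit over all groups 4 members (Hk1, Pfkm, P4ha2 and Higd1a) were higher and 14 lower, where 41.3% and 27.2% of all genes were. With NT-7 to NT-9 left out, Adm was lower in NT-4, NT-5 and NT-6 than in ESC, at -0.86 (SE 0.14, adjusted p = 0.0198 by limma). It was the single member that passed, where 1.96% of all genes were lower and 2% higher. Adm was -0.78, -1.11 and -1.06 in NT-4, NT-5 and NT-6, against -0.43, -0.15, 0.03 and 0.05 in ESC, with no overlap. These lines share 1 donor, Adeno-2, where Adm was -0.555, also below every ESC. Donor and nuclear transfer cannot be told apart there, and the p-value measures the spread between lines of 1 donor.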

How the data were processed

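The deposited table holds log2 intensities of 22626 probe sets, made by the authors. Its base and centring (array medians -0.35 to -0.05) were inferred from the values, and no label or header names the background correction or summarisation. Probe sets were named through the platform annotation and RefSeq symbols (18003 with 1 gene, 287 with several, 4336 with none). Each of 11807 genes was read from its probe set with the highest mean. Groups came from the labels. The number of arrays limits precision.

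Differences were tested with limma 3.58.1 under R 4.3.3 (2-sided moderated tests from lmFit and eBayes), with Benjamini-Hochberg adjustment over all genes and a threshold of 0.05. The fit was tested on simulated data. The members and lists were chosen with earlier results of these data known. Any member could be named. Ranges over clones are given for the 4 members per class with the largest called difference between blood and fibroblast origin. Further values per animal or line were picked after the values were seen. From each other list up to 5 called genes per direction could be named, with Hif1a, Epas1, Vhl, Egln2, Myc, Pou5f1, Sox2 and Nanog. Alternatives were quantile normalization, a filter at the 40th percentile of mean level, other uses of probe sets, eBayes with trend and robust settings, other blocks, weights and fits, the marker mean as covariate, and clones, animals or families left out.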

Additional observations from a re-analysis of the deposited data

Results flagged for a closer look

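Of 196 tests for a single clone lying far from the rest of its group, each of 1 member in 1 group, 19 gave a flag. Chance flags about 1 in 20 such tests. Members of 1 group share arrays, so the flags are not independent. Smaller groups, such as the granulocyte and PF groups, were not tested. ESC-1 was far below the other ESC for 6 members: Pfkp at 4.11, Bnip3 at 3.85, Ndrg1 at 0.35, Vegfa at 0.77, Ddit4 at 4.43 and Mxi1 at 1.65. The TTF-derived clone iPSC-46 stood apart for Aldoa (5.84), Eno2 (0.96), Bnip3l (2.71), Adm (0.25) and Ddit4 (5.09). Among MEF-derived clones, iPSC-5 stood apart for Aldoa (5.64) and Pgk1 (5.42) and iPSC-4 for Adm (1.44). Aldoa stood apart in iPSC-14 (GMP, mouse 1), at 5.71, and in iPSC-24 (HSC, mouse 2), at 5.78. Tpi1 stood apart in iPSC-11 (GMP, mouse 1), at 4.51, Adm in iPSC-10 (HSC, mouse 1), at -0.83, and Kdm3a in iPSC-22 (HSC, mouse 2), at 3.85.

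For 17 members the size of the blood minus fibroblast contrast was not the same in the 3 animals (limma F test, Benjamini-Hochberg over all genes). The count fell without iPSC-19, where the share of all genes was not counted. With all clones, the adjusted p was 0.0104 for Aldoa, 0.03 for Aldoc, 0.0196 for Tpi1, 0.00654 for Pgk1 and, under 0.05 before rounding, 0.05 for Eno2. Among the other targets it was 0.0218 for Slc2a3, 0.016 for Pdk1, 0.0118 for Bnip3, 0.0233 for Bnip3l, 0.00118 for Ndrg1, 0.000692 for Egln1, 0.0371 for Egln3, 0.00186 for P4ha2, 0.018 for Mxi1, 1.55e-07 for Adm, 0.0497 for Higd1a and 0.00742 for Ddit4.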

How the results depend on the processing

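For blood-derived against fibroblast-derived iPSC, the 25 called members kept their call under leave-one-out, without mouse 1, without mouse 2 and without iPSC-32. Leaving out 1 clone at a time gave 9 to 12 glycolytic enzymes and 12 or 13 other targets for the cells of origin. It gave 24 to 26 members for the animals and 0 to 3 members lower in all iPSC than in ESC (3 without ESC-1). For the difference between animals the count was lowest without iPSC-19, which leaves 1 PF clone in mouse 1. The share of all genes was not counted there. Quantile normalization lost the call of Ldha (0.039, adjusted p = 0.222 by limma). Without chimera 2, 7 glycolytic enzymes and 10 other targets were higher, where 25% of all genes were and 18.6% were lower, P4ha2 (0.14), Slc2a3 (0.053) and Eno2 (0.051) were among those that lost the call, 4 and 6 members of the classes differed between cells of origin, and Adm was at -0.067. With 1 mean per animal and cell type, 7 glycolytic enzymes and 10 other targets were higher, where 20.9% of all genes were and 15.5% were lower, without Slc2a3, P4ha2 and Adm, and 5 and 4 members differed. With the marker mean as covariate, 2 and 4 were higher and 0 and 1 differed, and Hk2 (-0.022), Aldoc (-0.33) and Slc2a3 (-0.050) turned below 0. For the cells of origin, the share of all genes was not counted in these settings. A fall in members that differed there cannot be told apart from a fall over all genes. In a fit of mouse 1 alone 0 and 2 (Adm and Vegfa) were higher, and Aldoa (-0.035), Pgk1 (-0.076) and Slc2a3 (-0.059) lay below 0. Within mouse 2 alone 1 other target, Adm, was lower, and Eno2 (-0.086) and Adm (-0.47) lay below 0. The share of all genes was not counted for these fits of 1 animal alone. With every probe set on its own, 1 other target, Higd1a, was called in both directions. In 1 fit over all groups, 2 members were higher in MEF-derived iPSC than in ESC, and 4 higher and 14 lower in NT-ESC than in ESC, where 41.3% and 27.2% of all genes were. All iPSC against ESC gave 7 lower without the MEF-derived clones, 14 with the spread within origin groups, 14 with equal weights as well and 17 with equal weights without ESC-1. NT-ESC against donor gave 1 higher with trend and robust settings, where the share of all genes was not counted. It gave 3 higher and 1 lower without the Adeno-2 family, and 14 higher in that family alone. NT-ESC against ESC gave 1 lower with NT-7 to NT-9 left out, which keeps lines of 1 donor only. The causes were not tested.

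ESC and MEF-derived clones share clone numbers 1 to 4, but their deviations correlated at 0.062, 0.124, 0.354 and 0.306, and 2 of 4 clones were closest to their own number, so the numbers were not taken as pairing. With clone number as a replicate block, 0 members were higher and 0 lower, as without it.

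The number of arrays limits the comparisons: the fibroblast class has 2 clones in mouse 1, and donors are single arrays. Neither the summarisation nor any scan batch is known here. Fibroblast kind and animal are confounded. Compression of bright probe sets was not tested.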
